A study of Mus musculus with 51 samples.

Results

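Messenger RNA of XY gonads from 28-day-old (P28) mice that were null for Dmrt1 was compared with that of their heterozygous counterparts. The comparison rests on 6 libraries of whole gonad, 3 of Dmrt1 +/- testes and 3 of Dmrt1 -/- gonads, out of 30 RNA libraries in the study, and covers every gene of the count table that passed a filter on low counts: 20952 of 55401. The mice were of a mixed 129Sv and C57Bl/6J background. The Dmrt1 +/- animals carry 1 copy of the same deleted allele that the Dmrt1 -/- animals carry in 2 copies, so both groups hold a mutant allele, and in the Dmrt1 -/- animals germ cells and somatic cells alike lack the gene. Wild-type testes (3 libraries) and Dmrt1 R111G/+ gonads (3 libraries) of the same age entered the fit. They took part in the filter on low counts, in the scaling and in the estimate of the spread. A later contrast between ages adds gonads of 3-day-old (P3) mice, 3 libraries each of Dmrt1 +/-, Dmrt1 -/-, Dmrt1 R111G/+ and Dmrt1 R111G/-. Neither the labels nor the methods say how many animals went into a library, and the p-values measure the spread between these libraries, which may be technical.

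DMRT1 is a transcription factor with a DM domain that binds DNA in Sertoli cells, the somatic support cells of the testis tubule, and in premeiotic germ cells. Sertoli cells nourish the germ cells, seal the tubule with tight junctions and secrete hormones such as AMH and the inhibins. Granulosa cells are their counterparts in the ovarian follicle, and FOXL2, estrogen receptor ESR2 and the orphan receptor NR5A2 (LRH-1) are among the factors that mark them. Removal of Dmrt1 from XY mice is known to turn Sertoli cells toward a granulosa-like state after birth and to cost the gonad its germ cells.

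Libraries of Dmrt1 +/- testes held 10649748 to 12697366 counts and those of Dmrt1 -/- gonads 8909790 to 11421776. Genes with at least 1 count numbered 28908 to 29260 in Dmrt1 +/- testes and 22689 to 23787 in Dmrt1 -/- gonads, and mitochondrially encoded genes took 4.16 to 5.34% and 5.25 to 6.16% of the counts. In a principal component analysis of the 12 P28 gonad libraries, the first component carried 86.8% of the variance, and the Dmrt1 -/- libraries sat together on it at 270.5 to 271.4. Dmrt1 +/- replicates 1 and 2 lay at -163.3 and -151.8, near the wild-type libraries at -189.0 to -175.8, while Dmrt1 +/- replicate 3 lay at -85.6. That library stands apart from the other two of its label. Between replicates 1 and 2, 658 genes (3.14% of those tested) differed by more than 2-fold on the log2(CPM + 1) scale, whereas 2410 and 2336 genes did between replicate 3 and each of them, and between Dmrt1 -/- libraries the number was 200 to 318. CPM are counts relative to the total of the library, scaled here by edgeR's TMM (trimmed mean of M values).

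Among the genes by which Dmrt1 +/- replicate 3 differed were those of late germ cells. Over all tested genes, 1844 lay more than 2-fold below the mean of replicates 1 and 2 in it and 150 more than 2-fold above. All 20 tested genes of elongating spermatids and all 20 of round spermatids lay below both other Dmrt1 +/- libraries in it, with medians of -1.33 and -0.72 against the mean of replicates 1 and 2, on the log2(CPM + 1) scale. Tnp1, a transition protein that takes part in the packing of sperm DNA, stood at 2505, 3759 and 381 CPM in the Dmrt1 +/- replicates and at a mean of 2720.5 CPM in wild-type testes. Genes of meiotic prophase differed less, with a median of -0.11 under TMM scaling and of 0.15 when only the library size was used. Of the Sertoli cell genes, 19 of 29 stood above both other libraries in replicate 3 and 0 below both, with a median of 0.43. Of the 8106 genes called lower in Dmrt1 -/- gonads below, 6915 leaned toward the Dmrt1 -/- level in this library (median -0.56), and 1754 of them by more than 2-fold. The counts over all genes are therefore given with and without it. The plot of the list medians shows the order.

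**Figure D1:**
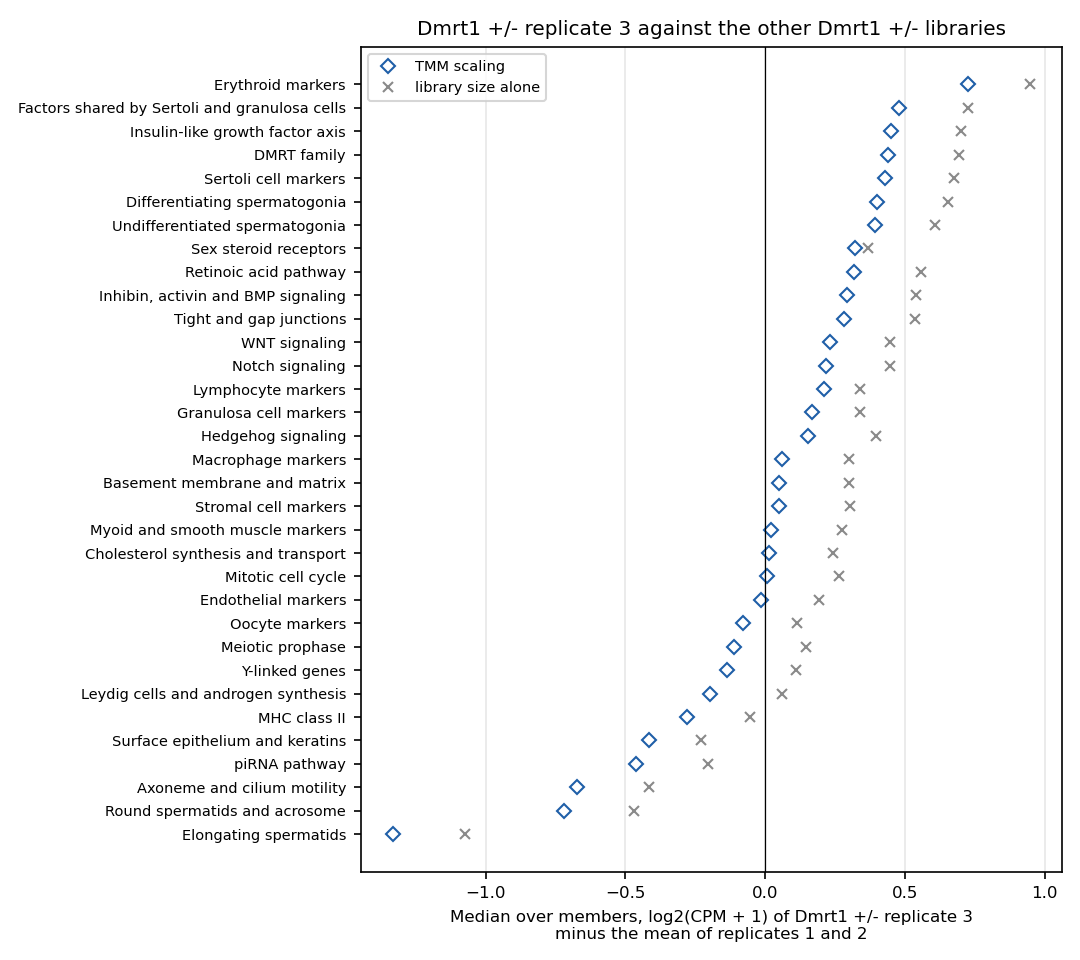
Median over the tested members of each list (rows, lists with at least 5 members tested) of log2(CPM + 1) in Dmrt1 +/- replicate 3 minus the mean of Dmrt1 +/- replicates 1 and 2, for TMM scaling (diamonds) and for library size alone (crosses). Spermatid, axoneme and piRNA genes lie lowest, elongating spermatids at -1.33 with TMM scaling and -1.07 with library size alone, while Sertoli cell genes lie at 0.43 and 0.68.

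Dmrt1 itself, on chromosome 19 from 25505618 to 25604329 of GRCm38, followed the labels. It stood at 36.2, 29.2 and 59.1 CPM in Dmrt1 +/- testes and at 0.435, 0.396 and 0.161 CPM in Dmrt1 -/- gonads, a log2 fold change of -6.98 ± 0.41 (SE; adjusted p = 1.42e-08). This and every adjusted p that follows came from the quasi-likelihood test of edgeR unless another tool is named. The groups did not overlap, and 10 counts were left in the 3 Dmrt1 -/- libraries against 1392 in the Dmrt1 +/- libraries. The table has 1 count per gene and library, so the deleted exons cannot be read apart from the others.

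Genes were called where the p-value adjusted by the Benjamini-Hochberg method lay below 0.05 and the levels differed by over 2-fold. By that rule 4149 genes (19.8% of those tested) stood higher in Dmrt1 -/- gonads than in Dmrt1 +/- testes and 8106 (38.7%) stood lower, and without Dmrt1 +/- replicate 3 the numbers were 4633 and 8453. With only the 6 libraries of the comparison in the fit, 19238 genes were tested, of which 3929 were higher and 6982 lower. In the main fit a further 3356 genes passed the adjusted p within 2-fold. Whether called or not, the Dmrt1 -/- libraries lay wholly above the Dmrt1 +/- libraries for 32.5% of tested genes and wholly below for 45.4%. Statements below on groups without overlap, and counts of list members called, are to be read beside these shares over all genes. Log2 fold changes compare levels relative to the total of a library, and the median over all tested genes was -0.28. It was -0.37 with the size factors of DESeq2, -0.14 with library size alone and -1.77 when the factors were set from macrophage, endothelial, myoid and stromal genes alone (called somatic-list scaling here). Somatic-list scaling left 782 genes higher and 13769 lower, so that 5.37% of the calls were higher against 33.9% with TMM. Every direction below is relative to the TMM scale, and a list whose median changes sign under somatic-list scaling is marked beside its count. In whole tissue, fewer cells of a type and less RNA per cell cannot be told apart.

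The lower calls were steeper than the higher ones. By the fitted fold change 3696 genes were over 64-fold lower and 1637 over 256-fold lower, against 29 and 6 genes on the higher side. The 3696 genes took 20.98, 20.5 and 12.1% of the counts of tested genes in the Dmrt1 +/- replicates, and 0.0703, 0.0754 and 0.0684% in the Dmrt1 -/- replicates. All genes called higher took 8.06, 10.8 and 12.8% in Dmrt1 +/- testes and 37.9, 37.8 and 37.6% in Dmrt1 -/- gonads. Of 20952 genes tested, 1819 had 0 counts in the 3 Dmrt1 -/- libraries and 8 had 0 counts in the 3 Dmrt1 +/- libraries.

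Protein-coding and noncoding genes differed in their makeup. Of 15836 protein-coding genes 3684 were higher and 4794 lower (median 0.04), while of 3776 long noncoding and unverified (TEC) genes 305 were higher and 2574 lower (median -4.69). Of 1216 pseudogenes, whose reads can be shared with the parent gene, 146 were higher and 684 lower. Among protein-coding genes of the X chromosome 216 of 687 were higher and 256 lower, and of the Y chromosome 2 of 31 were higher and 27 lower, many of the latter from multicopy families whose counts are uncertain.

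Genes of granulosa cells had the highest median of the 35 lists. Of them (24 tested of 26 listed) 20 were higher and 1 lower in Dmrt1 -/- gonads, with a median log2 fold change of 3.45 (17 higher and 3 lower, median 2.01, with somatic-list scaling). Foxl2, on chromosome 9 from 98955288 to 98958543, stood at 0.699, 0.105 and 0.507 CPM in the Dmrt1 +/- replicates and 121, 159 and 185 CPM in the Dmrt1 -/- replicates. Its antisense neighbour Foxl2os, whose annotated first bases overlap those of Foxl2, rose with it, from 0, 0.421 and 0.676 CPM to 77.2, 90.1 and 139.7 CPM. Reads were counted by strand. Kctd14 went from 31.5, 40.2 and 45.1 CPM to 446, 548 and 472 CPM, a log2 fold change of 3.65 ± 0.21 (adjusted p = 1.19e-08). In each of these genes every Dmrt1 -/- library lay above every Dmrt1 +/- library. Pgr, the progesterone receptor, and Nppc, the C-type natriuretic peptide that granulosa cells use to hold oocytes in meiotic arrest, came from 3 and 2 counts over the Dmrt1 +/- libraries, and were higher by 202-fold (95% counting interval 68.8 to 982) and 195-fold (95% counting interval 53.7 to 1619.9). Cyp19a1, the aromatase that makes estrogen, was named after its values were seen, as was Irx5, a homeobox gene: Cyp19a1 stood at 4.37, 4.21 and 2.53 CPM against 3.15, 6.33 and 4.68 CPM (adjusted p = 0.416), and Irx5 was the 1 granulosa gene called lower (log2 fold change -5.06).

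The largest rises among genes outside predicted loci included secreted proteins. Igfbp5, which binds insulin-like growth factors, stood at 4.20, 6.42 and 4.56 CPM in the Dmrt1 +/- replicates and 795, 943 and 1232 CPM in the Dmrt1 -/- replicates (log2 fold change 7.62 ± 0.34, adjusted p = 2.73e-09). Sfrp4, a secreted inhibitor of WNT ligands, went from 1.75, 0.526 and 2.11 CPM to 357, 219 and 222 CPM. Phyhip went from 1.31, 1.89 and 1.44 CPM to 123, 192 and 141 CPM, a 98.3-fold difference. Both groups were narrow beside these differences. Hoxd11, a homeobox gene, and Thbs4, a matrix thrombospondin, had 2 and 3 counts over the Dmrt1 +/- libraries and were higher by 124-fold (95% counting interval 34.0 to 1031) and 96.2-fold (95% counting interval 32.6 to 469). Bhlhe22 stood at 0.113 ± 0.195 CPM (SD, n = 3) against 16.5 ± 4.11 CPM.

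Sertoli cell genes did not move as a block. Of this list (all 29 listed) 3 were higher and 11 lower in Dmrt1 -/- gonads, with a median of -0.73 (1 higher and 22 lower, median -2.19, with somatic-list scaling). The share of lower calls was near the 38.7% of all tested genes, and that of higher calls was below their 19.8%. Without Dmrt1 +/- replicate 3 the list gave 5 higher and 11 lower, with a median of -0.30. The summed level of the list was 1699 to 2616 CPM in the Dmrt1 +/- libraries and 1746 to 1830.2 CPM in the Dmrt1 -/- libraries, so the groups overlapped. Clear falls included X-linked genes. Tsx, an X-linked testis gene, fell from 29.2, 30.4 and 34.0 CPM to 0.109, 0.198 and 0.0807 CPM (log2 fold change -7.82 ± 0.34), and Etd from 16.3, 21.9 and 18.3 CPM to 0.109, 0.297 and 0.242 CPM. Hopx, a homeodomain-only cofactor, fell from 18.9, 24.3 and 27.2 CPM to 3.69, 2.97 and 3.55 CPM (6.87-fold lower, adjusted p = 5.48e-08). In all of these the Dmrt1 -/- libraries lay wholly below. Sox8, a SOX factor that acts beside Sox9 in Sertoli cells, stood at 32.9, 26.8 and 46.7 CPM against 24.8, 32.5 and 32.8 CPM and was not called (adjusted p = 0.391). Amh, the anti-Mullerian hormone, stood at 7.17, 6.21 and 21.3 CPM against 12.8, 34.0 and 22.4 CPM, where Dmrt1 +/- replicate 3 lay within the Dmrt1 -/- range. It was not called with that library in the fit (log2 fold change 0.99, adjusted p = 0.0924) and was called higher without it (1.81, adjusted p = 0.00443) and without Dmrt1 -/- replicate 1 (adjusted p = 0.0465), and with limma's quality weights (1.47, adjusted p = 0.0188). Sox9, the factor that directs Sertoli cell fate, lay at the limit of 2-fold, with a log2 fold change of -0.98 (adjusted p = 0.00582). It became a call with DESeq2 (-1.06), DESeq2 size factors (-1.06), no filter (-1.11) and only the 6 libraries (-1.04), and without Dmrt1 +/- replicate 1 (-1.004), Dmrt1 +/- replicate 2 (-1.17) or Dmrt1 -/- replicate 2 (-1.21). Somatic-list scaling also called Sox9 lower (-2.49, adjusted p = 1.41e-04), and Sox8 too (-1.73, adjusted p = 0.00129). Among the 3 Sertoli genes called higher were Fshr, the receptor of follicle-stimulating hormone, and Vnn1, with log2 fold changes of 1.61 and 2.47; both were named after their values were seen.

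**Figure D2:**
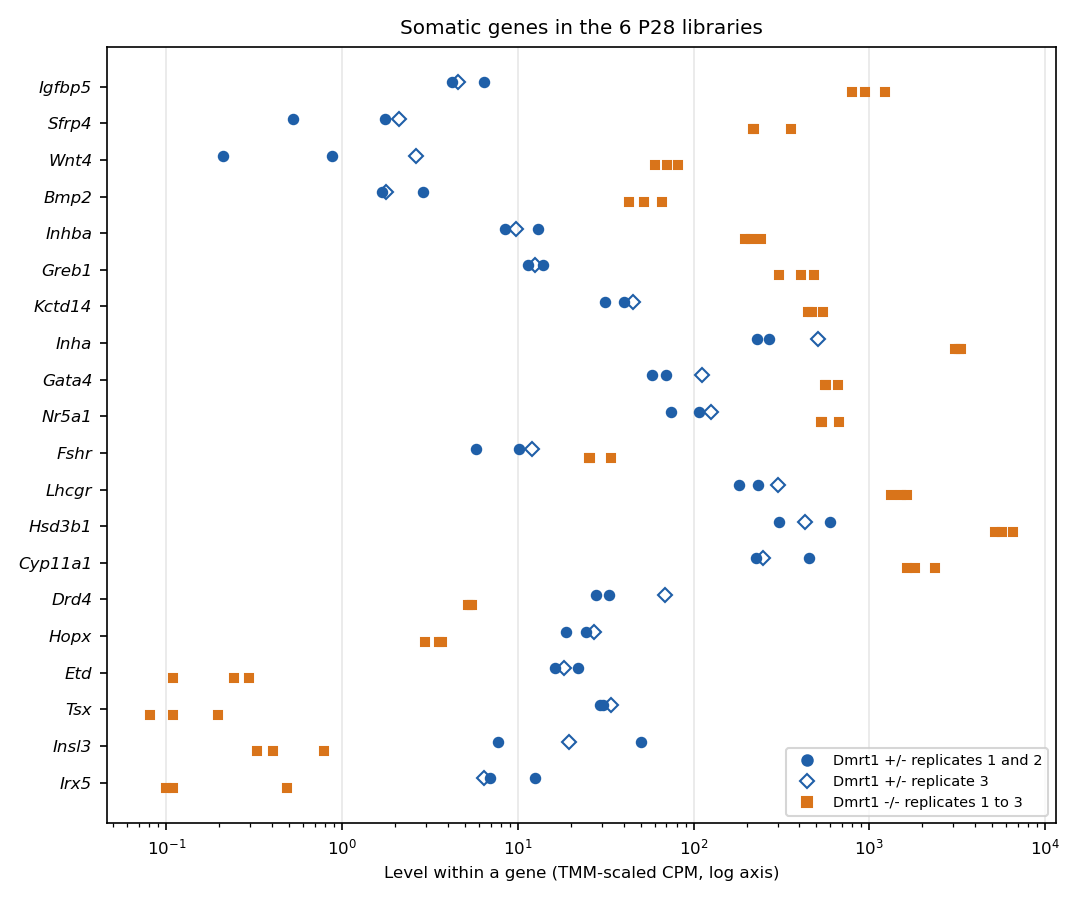
Level of 20 somatic genes in each of the 6 P28 libraries, as TMM-scaled CPM on a log axis (filled circles, Dmrt1 +/- replicates 1 and 2; open diamonds, Dmrt1 +/- replicate 3; squares, Dmrt1 -/- replicates; Greb1, Nr5a1, Fshr, Drd4, Insl3 and Irx5 were chosen after their values were seen). Only genes without overlap of the groups are shown, and Sox8, Amh, Dhh, Star and Cyp17a1, whose groups overlap, are left out. From Igfbp5 down to Cyp11a1 every square lies above every circle and diamond, and from Drd4 down to Irx5 every square lies below them, as read within a gene.

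Factors that Sertoli and granulosa cells share gave both directions. Of these (all 15 listed) 8 were higher and 3 lower in Dmrt1 -/- gonads (median 1.16; 4 higher and 7 lower, median -0.40, with somatic-list scaling). Gata4, a zinc finger factor of gonadal somatic cells, stood at 58.0, 69.6 and 111.3 CPM in the Dmrt1 +/- replicates and 556, 665 and 567 CPM in the Dmrt1 -/- replicates (log2 fold change 2.90 ± 0.25). Kitl, the ligand of the KIT receptor on germ cells, stood at 149, 179 and 203 CPM against 1145, 1275 and 901 CPM. Inha, the shared subunit of the inhibins, went from 230.3, 267 and 509 CPM to 3302, 3234 and 3076 CPM, a 9.55-fold rise (adjusted p = 1.12e-06). Dmrt1 +/- replicate 3 had the highest level of its group in each of these genes and stayed below the Dmrt1 -/- libraries. Wt1, needed for Sertoli cell identity, stood at 87.1, 64.5 and 115 CPM against 87.7, 119 and 112 CPM, and the groups overlapped (adjusted p = 0.311). Lhx2, a LIM homeobox factor, fell to 3 counts over the Dmrt1 -/- libraries and was lower by 109-fold (95% counting interval 37.0 to 531).

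Genes of androgen synthesis gave both directions. Leydig cells take up cholesterol, bring it into the mitochondrion with STAR and turn it step by step into testosterone. Of the Leydig cell and androgen genes (all 17 listed) 11 were higher and 2 lower in Dmrt1 -/- gonads, with a median of 1.70 (6 higher and 5 lower, median 0.33, with somatic-list scaling). Scarb1, the receptor through which cells take cholesterol from lipoproteins, stood at 82.7, 90.4 and 75.2 CPM against 446, 510.1 and 482 CPM. Cyp11a1, which cleaves the cholesterol side chain, stood at 225, 452 and 249 CPM against 2350.5, 1644 and 1826 CPM (log2 fold change 2.65 ± 0.41, adjusted p = 5.94e-05). Hsd3b1, the next enzyme, went from 304, 597 and 433 CPM to 6524, 5695 and 5208 CPM. All 3 rose without overlap of the groups. Star itself stood at 154, 238 and 244 CPM against 269, 203 and 184 CPM and Cyp17a1, the step toward androgens, at 530.3, 979.8 and 191 CPM against 867, 537 and 1222 CPM, and both pairs of groups overlapped (adjusted p = 0.919 and 0.286). Cyp17a1 became a call without Dmrt1 +/- replicate 2 (log2 fold change 1.27, adjusted p = 0.0484). Hsd17b3, which makes testosterone from androstenedione, had 1 count left in the Dmrt1 -/- libraries. It was lower by 307-fold (95% counting interval 54.6 to 12145). The other gene of the list called lower was Insl3, the Leydig cell hormone of testis descent, at 7.69, 49.9 and 19.6 CPM against 0.326, 0.792 and 0.403 CPM (named after its values were seen). Lhcgr, the receptor of luteinizing hormone, rose 6.28-fold, from 231, 181 and 301 CPM to 1515, 1647 and 1318 CPM.

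Receptors for sex steroids rose, with 5 of 5 tested genes called higher (median 1.85). Esr1, the estrogen receptor of Leydig and stromal cells, stood at 42.8, 79.3 and 75.9 CPM in Dmrt1 +/- testes against 259.6, 247 and 208 CPM in Dmrt1 -/- gonads (log2 fold change 1.85 ± 0.33). The groups did not overlap. With somatic-list scaling 2 of the 5 were higher and 0 lower.

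Growth factor genes of the TGF-beta family rose at several levels of the pathway. Of the inhibin, activin and BMP list (26 tested of 28 listed) 13 were higher and 0 lower in Dmrt1 -/- gonads (median 1.10; 6 higher and 8 lower, median -0.37, with somatic-list scaling). Among ligands, Inhba, a subunit of activin and inhibin, stood at 8.39, 12.9 and 9.80 CPM against 241, 213 and 197 CPM. Bmp2, a bone morphogenetic protein, went from 2.88, 1.68 and 1.77 CPM to 66.1, 51.9 and 42.6 CPM (log2 fold change 4.65 ± 0.41, adjusted p = 3.17e-07). Smad3, which carries the activin signal to the nucleus, went from 23.9, 26.0 and 36.6 CPM to 136, 145 and 153 CPM. In each the Dmrt1 -/- libraries lay above.

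Genes of WNT signaling were mostly higher with TMM scaling. WNT4 signals through beta-catenin and supports the ovarian state, and SFRP proteins bind WNT ligands outside the cell. Of the WNT genes (29 tested of 31 listed) 19 were higher and 1 lower in Dmrt1 -/- gonads (median 1.35; 8 higher and 6 lower, median -0.10, with somatic-list scaling). Wnt4 stood at 0.874, 0.210 and 2.62 CPM in the Dmrt1 +/- replicates and 60.0, 81.7 and 70.4 CPM in the Dmrt1 -/- replicates (log2 fold change 5.78 ± 0.48). Sfrp2 went from 0.699, 0.631 and 0.845 CPM to 10.4, 10.99 and 10.1 CPM, and Lgr4, a receptor for R-spondins, from 32.3, 36.8 and 44.0 CPM to 108, 106 and 122 CPM. Wnt2b stood at 4.55, 5.89 and 4.39 CPM against 6.74, 8.12 and 20.3 CPM, a call that rests on Dmrt1 -/- replicate 3 (log2 fold change 1.26, and 0.53 with adjusted p = 0.164 without that library). The 1 lower gene, named after its values were seen, was Lef1, a nuclear partner of beta-catenin, at 47.9, 19.4 and 20.4 CPM against 4.56, 3.56 and 3.31 CPM.

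With TMM scaling 4 Hedgehog genes of signal reception were called, and the other 8 tested genes of the list were not. Sertoli cells send Desert hedgehog to Leydig and myoid cells. Of this list (12 tested of 14 listed) 4 were higher and 0 lower in Dmrt1 -/- gonads (median 0.59; 1 higher and 5 lower, median -0.88, with somatic-list scaling). The ligand gene Dhh stood at 38.3, 28.3 and 44.5 CPM against 38.9, 41.1 and 33.1 CPM (adjusted p = 0.929), with overlapping groups. The 4 higher genes were Smo, the signal transducer, at 21.9, 39.3 and 53.5 CPM against 143, 153 and 155 CPM, and the 3 coreceptors Cdon, Gas1 and Boc, with log2 fold changes of 2.69, 1.87 and 1.66. Under somatic-list scaling Cdon stayed called (1.25), while Smo (0.57), Gas1 (0.47) and Boc (0.25) were not. Dhh was then called lower (-1.49, adjusted p = 0.00377).

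Notch receptors and targets were among the raised genes, and the ligand gene Dll3 was the 1 that fell. Of this list (all 21 listed) 11 were higher and 1 lower in Dmrt1 -/- gonads (median 1.03; 5 higher and 4 lower, median -0.44, with somatic-list scaling). Notch3, a receptor of mural cells, stood at 4.90, 4.52 and 5.32 CPM against 49.2, 42.9 and 52.8 CPM (log2 fold change 3.29 ± 0.24). The target gene Hey2 went from 1.75, 1.37 and 2.79 CPM to 12.8, 14.7 and 17.5 CPM, and Mfng, a glycosyltransferase that tunes the receptors, from 1.05, 1.47 and 1.86 CPM to 11.9, 14.3 and 13.6 CPM. Dll3 fell from 16.9, 24.6 and 19.3 CPM to 0.109, 0.198 and 0.0807 CPM. The ligand gene Jag1 stood at 22.1, 19.5 and 13.4 CPM against 42.5, 26.7 and 32.9 CPM, within the 2-fold limit (log2 fold change 0.89, adjusted p = 0.00328) and past it without Dmrt1 +/- replicate 1 (1.05) or Dmrt1 -/- replicate 2 (1.04).

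Retinoic acid genes moved both ways with TMM scaling, with a synthesis gene up and both tested CYP26 genes down. Of this list (17 tested of 20 listed) 6 were higher and 6 lower in Dmrt1 -/- gonads (median 0.45; 0 higher and 9 lower, median -1.02, with somatic-list scaling). The share of lower calls was near the 38.7% of all tested genes. Aldh1a1, which oxidizes retinal to retinoic acid, stood at 335, 744 and 723 CPM in Dmrt1 +/- testes and 3139, 2555 and 1979.8 CPM in Dmrt1 -/- gonads (log2 fold change 2.09 ± 0.38, adjusted p = 2.09e-04). The Aldh1a1 call was lost with somatic-list scaling (0.70, adjusted p = 0.0582). Cyp26b1, which degrades retinoic acid in the testis, fell from 239, 421 and 395 CPM to 53.8, 55.6 and 41.1 CPM. Cyp26a1, of the same family, was left with 1 count and was lower by 96.7-fold (95% counting interval 17.0 to 3857). Stra8, the retinoic acid response gene that opens meiosis in germ cells, was left with 2 counts and was lower by 190.5-fold (95% counting interval 52.4 to 1578). Crabp1, a retinoic acid binding protein, had 0 counts in the Dmrt1 -/- libraries and was at least 37.4-fold lower. Here and below, such a bound takes 3 counts over the group as its floor. Aldh1a2 stood at 87.7, 61.4 and 63.6 CPM against 93.5, 62.0 and 65.2 CPM, with overlapping groups (adjusted p = 0.84).

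Insulin-like growth factor genes rose most evenly among the IGF binding proteins, where 6 of 6 tested genes (Igfbp2 to Igfbp7) were higher. Of this list (all 16 listed) 10 were higher and 3 lower in Dmrt1 -/- gonads (median 1.14; 3 higher and 3 lower, median -0.31, with somatic-list scaling). Insr, the insulin receptor, stood at 39.6, 37.4 and 40.4 CPM against 108, 113 and 146 CPM. Igf1 stood at 179, 229.8 and 150.4 CPM against 359, 396 and 413 CPM, a change at the 2-fold limit (log2 fold change 1.06) whose call was lost in 6 settings besides somatic-list scaling, without Dmrt1 +/- replicate 3 (0.95) and without Dmrt1 -/- replicate 3 (0.96) among them. Igf2bp3, an RNA-binding protein of germ cells, fell from 122, 85.7 and 64.2 CPM to 4.35, 4.26 and 4.20 CPM, and Igf2bp1 fell to 3 counts, lower by 203-fold (95% counting interval 69.3 to 989).

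Genes of tight and gap junctions, the seal between Sertoli cells, gave both directions. Of this list (17 tested of 19 listed) 5 were higher and 3 lower in Dmrt1 -/- gonads, with a median of -0.11 (3 higher and 9 lower, median -1.62, with somatic-list scaling; 0.07 without Dmrt1 +/- replicate 3, -0.22 without Dmrt1 -/- replicate 3 and -0.03 without Dmrt1 -/- replicate 1). Gja1, the connexin of gap junctions in granulosa and Sertoli cells, stood at 187, 203 and 237 CPM against 1377, 1462 and 1528 CPM (log2 fold change 2.80 ± 0.17, adjusted p = 1.71e-08). Cxadr, an adhesion protein of tight junctions, went from 4.37, 4.21 and 4.98 CPM to 80.8, 85.7 and 76.4 CPM, and Cldn5, the claudin of endothelial cells, from 9.97, 20.7 and 15.2 CPM to 81.6, 89.4 and 82.5 CPM. The 3 lower genes were Ocln, Cldn11 and Marveld3, with log2 fold changes of -2.50, -1.33 and -3.11; Cldn11, the claudin of the blood-testis barrier, and Marveld3 were named after their values were seen.

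Most matrix genes were higher. Of these (all 35 listed) 25 were higher and 0 lower in Dmrt1 -/- gonads (median 1.66, and 8 higher and 6 lower with somatic-list scaling). Lox, which crosslinks collagen, stood at 9.005, 11.9 and 6.93 CPM in the Dmrt1 +/- replicates and 88.4, 91.1 and 107 CPM in the Dmrt1 -/- replicates (log2 fold change 3.37 ± 0.27). The laminin gene Lama4 went from 8.65, 7.99 and 6.33 CPM to 66.8, 64.9 and 59.9 CPM and Fn1, which encodes fibronectin, from 26.5, 23.7 and 29.9 CPM to 109.6, 154 and 156 CPM. The interstitial collagen gene Col1a1 stood at 144 ± 20.3 CPM (SD, n = 3) against 889 ± 285 CPM and Col15a1 at 32.4 ± 2.94 CPM against 173 ± 31.2 CPM. These groups did not overlap.

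Cholesterol genes, which feed steroid synthesis, were raised in part. Of this list (19 tested of 20 listed) 11 were higher and 0 lower in Dmrt1 -/- gonads (median 1.19; 1 higher and 3 lower, median -0.26, with somatic-list scaling). Soat1, which stores cholesterol as esters, stood at 209, 243 and 331 CPM against 1126, 947 and 1023 CPM (log2 fold change 1.98 ± 0.20). The synthesis gene Hmgcs1 went from 239, 328 and 229 CPM to 879.7, 679 and 631 CPM. Neither pair of groups overlapped.

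Marker genes of the other cell types of the gonad were mostly higher on this scale. Of the endothelial genes (all 13 listed) 12 were higher and 0 lower in Dmrt1 -/- gonads (median 3.12; 10 higher and 1 lower, median 1.68, with somatic-list scaling), and of the stromal genes (all 12 listed) 9 were higher and 0 lower in Dmrt1 -/- gonads (median 2.24; 4 higher and 2 lower, median 0.82, with somatic-list scaling). Pecam1, an adhesion molecule of endothelium, stood at 5.51, 4.52 and 4.31 CPM against 60.1, 66.1 and 65.8 CPM, and Emcn at 1.05, 1.37 and 0.676 CPM against 18.4, 17.4 and 16.1 CPM. Lum, a proteoglycan of stromal cells, went from 7.96, 7.15 and 3.88 CPM to 128, 159 and 200.1 CPM, and Dpt from 3.15, 3.58 and 1.18 CPM to 53.4, 48.9 and 40.3 CPM. The groups lay apart in each. The summed level of the endothelial list was 80.1 to 97.4 CPM in the Dmrt1 +/- libraries and 599 to 683 CPM in the Dmrt1 -/- libraries, and that of the stromal list 684 to 1229 CPM in the Dmrt1 +/- libraries and 3701 to 4298 CPM in the Dmrt1 -/- libraries. Pdgfra, which defines stromal cells, stood at 136, 215 and 179 CPM against 218, 199.7 and 263 CPM with overlapping groups (adjusted p = 0.186). The part of these cells in the changes of the other lists was not tested.

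Myoid and immune genes moved less. Of the myoid and smooth muscle genes (all 13 listed) 3 were higher and 2 lower in Dmrt1 -/- gonads (median 0.26; 1 higher and 8 lower, median -1.14, with somatic-list scaling). The median was 0.02 without Dmrt1 +/- replicate 1, 0.40 without Dmrt1 +/- replicate 2 and -0.05 without Dmrt1 -/- replicate 3. Acta2 and Myh11, which define contractile peritubular cells, stood at 55.6, 105 and 78.8 CPM against 56.6, 63.7 and 89.0 CPM and at 88.9, 121 and 105 CPM against 74.6, 72.6 and 87.7 CPM, neither of them called. Rgs5, a gene of pericytes, rose from 30.8, 41.0 and 24.7 CPM to 470.1, 444 and 432 CPM, and Actg2, the smooth muscle gamma actin, fell from 65.8, 60.8 and 22.2 CPM to 2.06, 2.38 and 3.15 CPM. Of the macrophage genes (all 16 listed) 7 were higher and 1 lower in Dmrt1 -/- gonads (median 0.99; 0 higher and 3 lower, median -0.43, with somatic-list scaling). Adgre1 (F4/80) stood at 3.41, 8.20 and 6.84 CPM against 15.4, 9.997 and 10.0 CPM and was not called (adjusted p = 0.0579), while it was called without Dmrt1 +/- replicate 2 (log2 fold change 1.19, adjusted p = 0.0424), with library size alone (1.07) and with limma's quality weights (1.03). Csf1r, the receptor of macrophage colony-stimulating factor, had a log2 fold change of 0.99 and was called without Dmrt1 +/- replicate 2 (1.19) or 3 (1.06), with library size alone (1.13) and with limma's quality weights (1.04). C1qa, a complement subunit made by macrophages, rose from 33.5, 62.4 and 51.3 CPM to 120.0, 158 and 110.8 CPM (log2 fold change 1.40, adjusted p = 0.00314). Aif1 was the 1 macrophage gene called lower, at 199, 276 and 79.8 CPM against 12.2, 10.7 and 8.79 CPM, and Dmrt1 +/- replicate 3 was the lowest of its group. The macrophage list summed to 584 to 891 CPM in the Dmrt1 +/- libraries and 938 to 1179 CPM in the Dmrt1 -/- libraries.

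Blood and other markers were few. Of the MHC class II genes (7 tested of 8 listed) 0 were higher and 1 lower in Dmrt1 -/- gonads (median 0.83; 0 higher and 3 lower, median -0.51, with somatic-list scaling; medians of 0.40 to 1.37 with 1 library left out), the lower one being H2-DMa at 13.7, 16.6 and 14.8 CPM against 4.56, 7.52 and 4.03 CPM, and without Dmrt1 +/- replicate 2 H2-Aa and H2-Eb1 were called higher (log2 fold changes 2.09 and 2.06). Of the lymphocyte genes (5 tested of 11 listed) 1 was higher and 2 lower in Dmrt1 -/- gonads, with the T cell receptor subunit genes Cd3e and Cd3d lower and Cd4 higher. The globin genes Hba-a1, Hba-a2, Hbb-bs and Hbb-bt, near-identical pairs whose reads cannot be fully separated, were higher by log2 fold changes of 2.29, 2.36, 2.18 and 2.11, and all 4 calls were lost with somatic-list scaling (log2 fold changes 0.74 to 0.96). The red cell list summed to 32.2 to 95.5 CPM in the Dmrt1 +/- libraries and 223 to 374 CPM in the Dmrt1 -/- libraries. Of 5 surface epithelium and keratin genes tested 2 were higher and 1 lower (median 0.58; 1 higher and 2 lower, median -0.96, with somatic-list scaling), and without Dmrt1 +/- replicate 3 6 higher and 1 lower of 9 tested. The median with 1 library left out ran from 0.11 without Dmrt1 -/- replicate 1 (5 tested) to 3.65 without Dmrt1 -/- replicate 2 (9 tested). Leaving out a library changes which genes pass the filter, so these medians cover different genes. Lrrn4, of mesothelium, had a log2 fold change of -1.08 and was called lower without Dmrt1 -/- replicate 3 (-2.69). Krt18 stood at 0.350, 1.16 and 0.422 CPM against 9.99, 1.19 and 1.94 CPM, a call that was lost without Dmrt1 -/- replicate 1 (log2 fold change 1.31, adjusted p = 0.0938) and with limma's quality weights (2.08, adjusted p = 0.0689). Muc16 fell from 48.9, 49.0 and 22.5 CPM to 4.24, 0.0990 and 7.99 CPM. Among 2 adipocyte genes tested, Plin1, a coat protein of lipid droplets, stood at 9.09, 25.9 and 15.1 CPM against 98.3, 84.7 and 102 CPM and Adipoq at 20.1, 31.3 and 10.1 CPM against 0.326, 0 and 1.61 CPM. Of adrenal cortex genes Cyp11b1 and Cyp11b2 were below the filter, Cyp21a1 fell from 0.699, 4.94 and 2.62 CPM to 0.217, 0.0990 and 0.161 CPM, and Mrap, the partner of the ACTH receptor, rose from 15.5, 26.5 and 20.0 CPM to 35.5, 43.9 and 47.4 CPM, a call that was lost without Dmrt1 +/- replicate 1 (0.86) or Dmrt1 -/- replicate 3 (0.89), with DESeq2 or its size factors (0.95 each), with no filter (0.92), with only the 6 libraries (0.99) and with somatic-list scaling (-0.39).

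**Figure D3:**
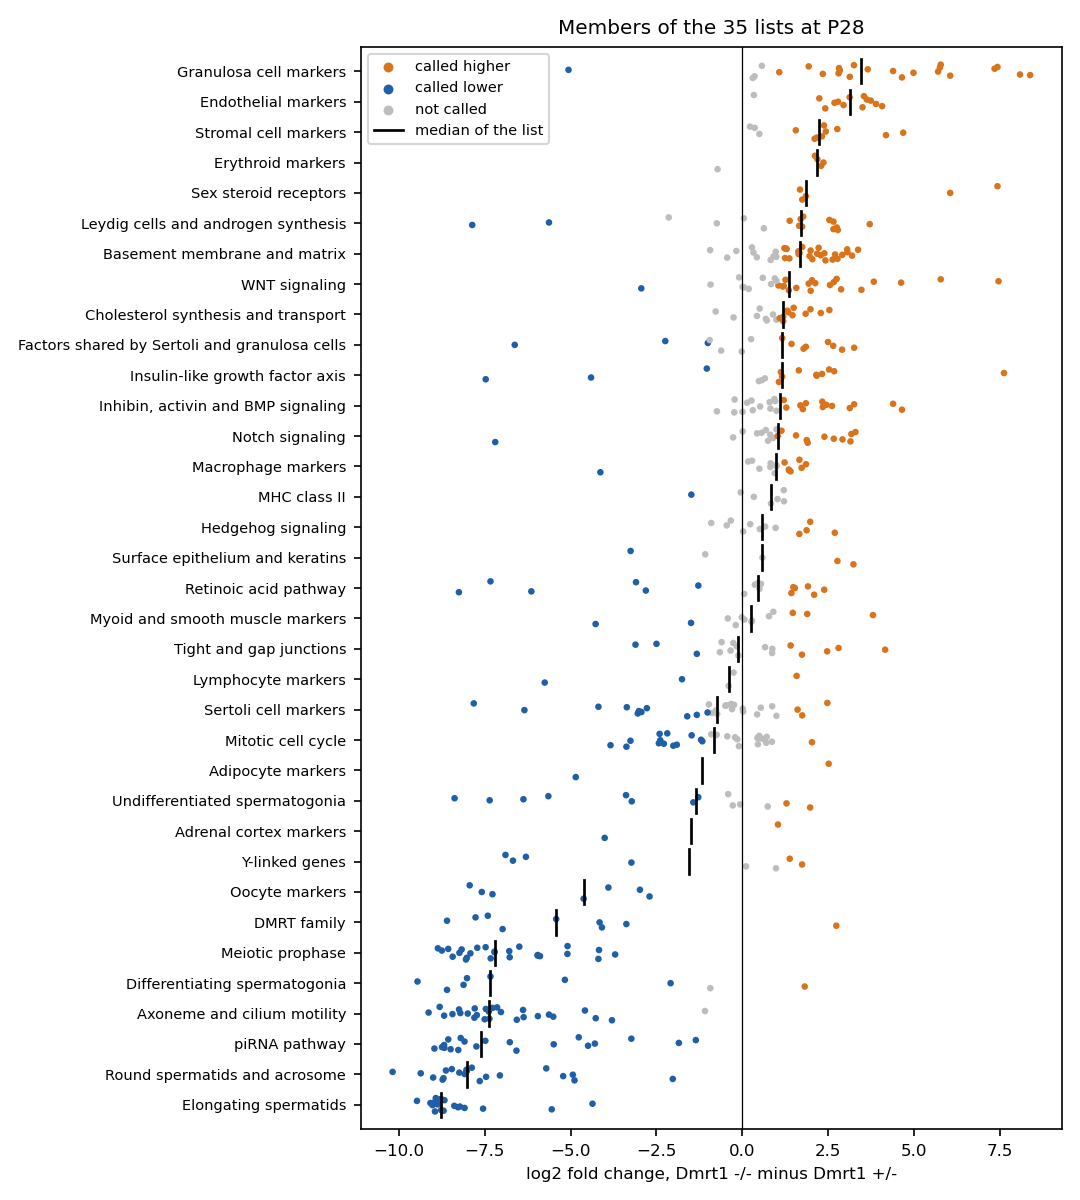
Log2 fold change of every tested member (points) of the 35 lists (rows), Dmrt1 -/- minus Dmrt1 +/-, on the TMM scale, with the median of each list as a bar. Lists of meiotic and later germ cells lie at medians of -8.77 to -7.22, and granulosa, endothelial and stromal lists lie at 3.45, 3.12 and 2.24; somatic-list scaling brings 12 of the 19 medians above 0 to below 0.

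Genes of dividing cells gave a share of lower calls near that of all genes. Of the mitotic cell cycle genes (all 28 listed) 1 was higher and 13 lower in Dmrt1 -/- gonads, with a median of -0.83 (0 higher and 22 lower, median -2.33, with somatic-list scaling), where 38.7% of all tested genes were lower. Bub1, a kinase of the spindle checkpoint, stood at 114, 137 and 106 CPM in the Dmrt1 +/- replicates and 7.50, 9.60 and 7.83 CPM in the Dmrt1 -/- replicates (log2 fold change -3.84 ± 0.18), and Aurka, a kinase of the spindle pole, at 124, 94.8 and 86.2 CPM against 9.45, 11.2 and 8.79 CPM. Ccne2, an S phase cyclin, fell from 81.5, 76.9 and 65.0 CPM to 7.17, 11.1 and 5.16 CPM and Top2a from 419, 389 and 324 CPM to 80.6, 80.4 and 87.9 CPM. Mki67, the general proliferation marker, stood at 319, 224 and 311 CPM against 165, 171 and 172 CPM, within the 2-fold limit (log2 fold change -0.75, adjusted p = 8.87e-04). The 1 gene called higher, named after its values were seen, was Ccnd2, a D-type cyclin that granulosa cells also use, at 92.9, 117 and 113 CPM against 505, 457 and 352 CPM.

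Germ cells develop from undifferentiated spermatogonia through differentiating spermatogonia, meiosis and round spermatids to elongating spermatids, and in the first wave of the mouse testis the latest of these are just forming near this age. The median fall was smallest for undifferentiated spermatogonia and largest for elongating spermatids. Of the undifferentiated spermatogonial genes (14 tested of 17 listed) 2 were higher and 8 lower in Dmrt1 -/- gonads (median -1.36), of the differentiating ones (9 tested of 10 listed) 1 was higher and 7 lower in Dmrt1 -/- gonads (median -7.33), and of the meiotic prophase, round spermatid and elongating spermatid genes 25 of 25, 20 of 20 and 20 of 20 tested were lower, with medians of -7.22, -8.03 and -8.77. With genes at 0 counts held at their bound, the medians of the differentiating, meiotic and round spermatid lists were -6.45, -6.79 and -7.76.

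Some spermatogonial genes are also active in somatic cells, and the level left in Dmrt1 -/- gonads varied. Gfra1, the GDNF receptor of stem cells, stood at 7.52, 5.05 and 7.77 CPM against 4.35, 1.78 and 1.53 CPM (log2 fold change -1.43, adjusted p = 0.00553). Zbtb16 (PLZF) stood at 21.9, 30.1 and 23.8 CPM against 19.7, 16.6 and 20.6 CPM and was not called (adjusted p = 0.0932). Lin28a, an RNA-binding protein of spermatogonia, fell from 16.7, 11.99 and 21.2 CPM to 0.109, 0.297 and 0.161 CPM, and Pou5f1 had 0 counts left and was at least 40.3-fold lower. Kit, a receptor of differentiating spermatogonia that Leydig cells also carry, was the 1 gene of its list called higher, at 50.3, 55.3 and 69.9 CPM against 261, 168 and 189 CPM. Meioc, which holds germ cells in the meiotic program, fell from 534, 389 and 347 CPM to 1.41, 1.58 and 1.53 CPM (log2 fold change -8.12 ± 0.25, adjusted p = 2.66e-10). Sohlh2 fell to 2 counts, lower by 307-fold (95% counting interval 84.5 to 2537).

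In meiotic cells the synaptonemal complex gene Sycp1 stood at 150.2, 177 and 151 CPM against 0.435, 0.396 and 0.403 CPM (log2 fold change -8.56 ± 0.23, adjusted p = 1.62e-10), and Sycp2 at 348, 273 and 230.5 CPM against 0.435, 0.693 and 0.645 CPM. The cohesin gene Smc1b went from 222, 224 and 136 CPM to 0.435, 0.891 and 0.565 CPM. Of piRNA pathway genes, which silence transposons in germ cells, (20 tested of 21 listed) 0 were higher and 20 lower in Dmrt1 -/- gonads (median -7.61). Piwil1 (MIWI) stood at 451, 215 and 173 CPM against 0.652, 1.09 and 0.323 CPM, Mael at 527, 456 and 341 CPM against 0.760, 1.68 and 0.645 CPM and the helicase gene Ddx4 at 363, 362 and 245 CPM against 0.760, 1.19 and 0.726 CPM. Each of these fell to under 1% of its Dmrt1 +/- mean. The meiotic and piRNA groups overlapped for 0 genes, while 45.4% of all tested genes lay wholly below in Dmrt1 -/- gonads.

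Spermatid genes had the lowest medians of the 35 lists. Crisp2, which sits in the acrosome and the tail of sperm, stood at 1430.2, 1634 and 578 CPM in the Dmrt1 +/- replicates and 2.61, 3.37 and 2.74 CPM in the Dmrt1 -/- replicates. Acrv1, an acrosomal antigen, went from 181, 241 and 114 CPM to 0.435, 0.297 and 0.484 CPM, and Prm1, a protamine that replaces histones in sperm, from 2884, 5223 and 705 CPM to 7.39, 6.04 and 4.28 CPM. Dmrt1 +/- replicate 3 was the lowest testis library for each of these and lay far above the Dmrt1 -/- libraries. Smcp, of the sperm mitochondrial sheath, stood at 751, 655 and 279.7 CPM against 1.41, 1.58 and 1.13 CPM, and Pgk2, the glycolytic kinase of sperm, at 1266, 1715 and 604 CPM against 1.96, 2.08 and 2.50 CPM (log2 fold change -9.08 ± 0.50). The elongating spermatid list summed to 6737 to 25429.5 CPM in the Dmrt1 +/- libraries and 85.7 to 89.0 CPM in the Dmrt1 -/- libraries. Without Dmrt1 +/- replicate 3 its median was -9.11. Of axoneme and cilium genes (27 tested of 29 listed) 0 were higher and 26 lower in Dmrt1 -/- gonads (median -7.37). Dnah8, a dynein heavy chain of the sperm tail, stood at 1245, 446 and 250.4 CPM against 2.17, 3.56 and 3.31 CPM. Of the 10 genes with the largest fitted falls, 9 had 0 counts in the Dmrt1 -/- libraries, among them Mbd3l1, at least 693-fold lower, Spata45, at least 498-fold lower, and Odf3l1, at least 396-fold lower. H2al3, a histone variant gene, had 1 count left and was lower by 3407-fold (95% counting interval 611 to 134626).

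**Figure D4:**
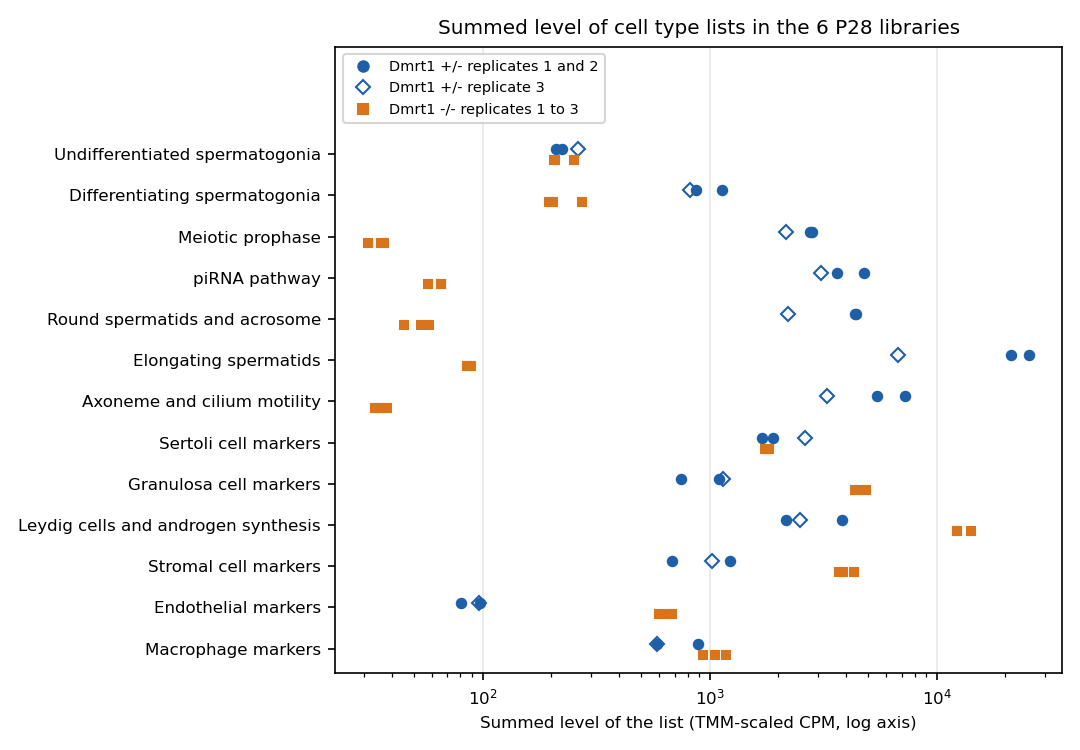
Summed level of 13 cell type lists in each of the 6 P28 libraries (TMM-scaled CPM, log axis), with filled circles for Dmrt1 +/- replicates 1 and 2, open diamonds for Dmrt1 +/- replicate 3 and squares for Dmrt1 -/- replicates. Elongating spermatid genes range from 6737 to 25430 CPM in testes and from 85.7 to 89.0 CPM in Dmrt1 -/- gonads, while undifferentiated spermatogonial and Sertoli cell lists overlap between the groups. The squares lie to the right of the Dmrt1 +/- symbols for granulosa, Leydig, stromal, endothelial and macrophage lists; somatic-list scaling turns the median of the macrophage list below 0.

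Promoters of called genes were searched for the letters of 4 motifs, on both strands, from 250 bases before to 50 bases after each RefSeq start in GRCm38.p6. The motifs were TGACGTCA (the cAMP response element, CRE, which reads the same on both strands), TCAAGGTCA (a half-site of NR5A receptors), GTAAACA (a forkhead site) and TACANTGT (the core of a DMRT1 site, which can overlap its own reverse complement). Of 2944 genes called higher with a promoter in the table and 5135 called lower, CRE letters were in 2% and 2.9%, NR5A letters in 0.476% and 0.604%, forkhead letters in 3.19% and 3.84%, and DMRT1 letters in 2% and 2.86%. Counted per promoter, since a gene may have several starts, the shares for genes called higher were 1.71%, 0.4%, 2.59% and 1.76%, those for genes called lower 2.48%, 0.53%, 3.26% and 2.48%, and those over all 32851 promoters 1.79%, 0.423%, 3.65% and 2.69%. For genes tested but not called the shares per promoter were 3.21%, 0.155%, 2.58% and 1.42%. These shares were not tested against each other, and a match of letters is a description and not a site of binding. Shown are the 250 bases before the start for 3 of the spermatid genes called lower and for the VEGF receptor gene Flt1, called higher (7.87, 6.10 and 6.67 CPM against 41.1, 46.7 and 45.0 CPM), because each holds 1 or more of the motifs, in capitals and written 5′ to 3′ on the strand of the gene. Izumo1, the sperm protein of egg fusion, stood at 69.5, 82.9 and 36.2 CPM against 0.217, 0.297 and 0.484 CPM, and Prm2 at 2862, 3376 and 743 CPM against 5.97, 4.65 and 4.20 CPM. Izumo1 and Flt1 were named after their promoters were read.
Prm2, chr16:10792106-10792355, minus strand: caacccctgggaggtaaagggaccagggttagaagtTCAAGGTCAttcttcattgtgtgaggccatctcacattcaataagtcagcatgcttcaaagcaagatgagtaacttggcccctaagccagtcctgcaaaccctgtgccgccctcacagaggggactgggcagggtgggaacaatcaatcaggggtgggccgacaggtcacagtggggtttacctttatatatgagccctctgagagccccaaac
Smcp, chr3:92589074-92589323, minus strand: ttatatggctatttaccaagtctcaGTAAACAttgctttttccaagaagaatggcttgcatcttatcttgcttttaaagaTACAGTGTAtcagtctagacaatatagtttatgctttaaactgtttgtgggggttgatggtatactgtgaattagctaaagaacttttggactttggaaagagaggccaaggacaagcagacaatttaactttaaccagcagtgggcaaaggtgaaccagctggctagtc
Izumo1, chr7:45621561-45621810, plus strand: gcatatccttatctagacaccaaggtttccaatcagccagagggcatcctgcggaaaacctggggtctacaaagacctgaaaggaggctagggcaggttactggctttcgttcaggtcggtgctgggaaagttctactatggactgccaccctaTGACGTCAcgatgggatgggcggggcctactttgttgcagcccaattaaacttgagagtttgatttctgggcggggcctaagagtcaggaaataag
Flt1, chr5:147726012-147726261, minus strand: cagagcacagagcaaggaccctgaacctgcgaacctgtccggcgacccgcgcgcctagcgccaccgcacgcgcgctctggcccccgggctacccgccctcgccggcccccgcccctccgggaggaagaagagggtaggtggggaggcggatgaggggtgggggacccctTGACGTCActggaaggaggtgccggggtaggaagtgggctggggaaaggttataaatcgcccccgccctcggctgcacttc
Capitals mark TCAAGGTCA in Prm2, GTAAACA and TACAGTGTA in Smcp, and TGACGTCA in Izumo1 and Flt1.

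Genes of the Y chromosome gave both directions. Of 8 tested, 2 were higher and 4 lower. Usp9y stood at 25.8, 26.1 and 19.4 CPM against 0.109, 0.297 and 0.242 CPM, Zfy2, a zinc finger gene of meiotic cells, at 23.7, 19.1 and 17.7 CPM against 0.217, 0.0990 and 0.161 CPM and Zfy1 at 15.7, 18.2 and 13.5 CPM against 0.217, 0.0990 and 0.242 CPM, with reads of the Zfy pair uncertain. Uba1y fell from 22.5, 30.6 and 30.3 CPM to 2.17, 3.66 and 2.99 CPM. Ddx3y and Eif2s3y, which most cells express, stood at 63.8, 87.2 and 80.0 CPM against 128, 177 and 151 CPM and at 48.3, 68.2 and 44.6 CPM against 41.7, 68.1 and 63.5 CPM, and neither was called with TMM scaling (adjusted p = 0.00256 and 0.642), Eif2s3y being lower with somatic-list scaling. Ddx3y, at a log2 fold change of 0.98, passed 2-fold without Dmrt1 +/- replicate 2 (1.07), Dmrt1 +/- replicate 3 (1.03) or Dmrt1 -/- replicate 1 (1.09). The 2 higher genes, Kdm5d and Uty, had log2 fold changes of 1.74 and 1.38 and were named after their values were seen.

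Other DM domain genes fell with Dmrt1. Of 9 tested genes of the family 8 were lower, Dmrt1 among them by the deletion. Dmrtb1, which times the exit of spermatogonia into meiosis, stood at 466, 327 and 284 CPM against 0.978, 0.792 and 0.968 CPM, and Dmrtc2, of meiotic cells, at 45.0, 36.6 and 37.2 CPM against 0.217, 0.297 and 0.161 CPM. Dmrtc1a fell from 34.5, 46.5 and 54.6 CPM to 0.978, 1.29 and 0.887 CPM, with reads that its copy Dmrtc1b may share. The 1 higher gene was Dmrt3, at 0.350, 0.421 and 2.20 CPM against 5.32, 9.11 and 5.97 CPM, named after its values were seen. Oocyte genes were low in both groups. Of 15 listed 7 passed the filter, and all 7 of these were lower in Dmrt1 -/- gonads, Gdf9 at 10.1, 8.10 and 6.59 CPM against 1.304, 1.19 and 1.29 CPM, with the list summing to 18.2 to 24.7 CPM in the Dmrt1 +/- libraries and 2.10 to 2.28 CPM in the Dmrt1 -/- libraries. Of the 7, 3 had 0 counts in the Dmrt1 -/- libraries and could pass the filter only through other groups. The count of lower calls is therefore not independent of the filter, and no conclusion on oocyte genes is drawn from it. Bmp15 was below the filter.

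At 3 days after birth (P3) far fewer genes differed between the same genotypes. The fit held the 24 gonad libraries of both ages, with no library shared between the ages. Those of P3 were 3 each of Dmrt1 +/-, Dmrt1 -/-, Dmrt1 R111G/+ and Dmrt1 R111G/- gonads, the last 2 entering for the filter, the scaling and the estimate of the spread. In this fit 29 genes were higher and 38 lower in P3 Dmrt1 -/- gonads than in P3 Dmrt1 +/- gonads. Of the 21377 genes tested, 1186 had an unadjusted p below 0.05. A share near 0.05 would arise with no difference at all, so the 1186 are not read as further changed genes. The difference between the P28 and the P3 change was tested as a contrast and was called for 8922 of 21377 genes (41.7%), 3845 of them with the more positive change at P28 and 5077 with the more negative. Prm1, Smcp and Tssk2, with 0 counts in the P3 Dmrt1 +/- and Dmrt1 -/- libraries, have no usable change at P3. They were not called and are not among the 5077, though they fell steeply at P28. Of 18 genes chosen for their roles in the gonad, with earlier results of these data known, 10 had a called difference. Inhba stood at 643, 622 and 555 CPM in P3 Dmrt1 +/- gonads and 594, 760.2 and 571 CPM in P3 Dmrt1 -/- gonads, a log2 fold change of 0.08 against 4.39 at P28. Dazl, an RNA-binding protein of germ cells, stood at 115, 298 and 149 CPM and 144, 68.3 and 162 CPM, with overlapping groups, and its log2 fold change was -0.58 at P3 and -8.27 at P28. Lhcgr stood at 32.9, 34.5 and 31.7 CPM and 37.96, 42.2 and 29.1 CPM at P3. Cst9, a cystatin of Sertoli cells, and Ocln, the tight junction protein occludin, were lower at P3 by log2 fold changes of -2.77 (adjusted p = 0.00115) and -2.27 (adjusted p = 0.0061), and their changes at P28 differed from these by -0.30 ± 0.56 and -0.26 ± 0.56 (SE), which the test did not call (adjusted p = 0.73 and 0.782). Sox8, Amh, Star and Cyp17a1 were called at neither age, and their differences were not called.

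**Figure D5:**
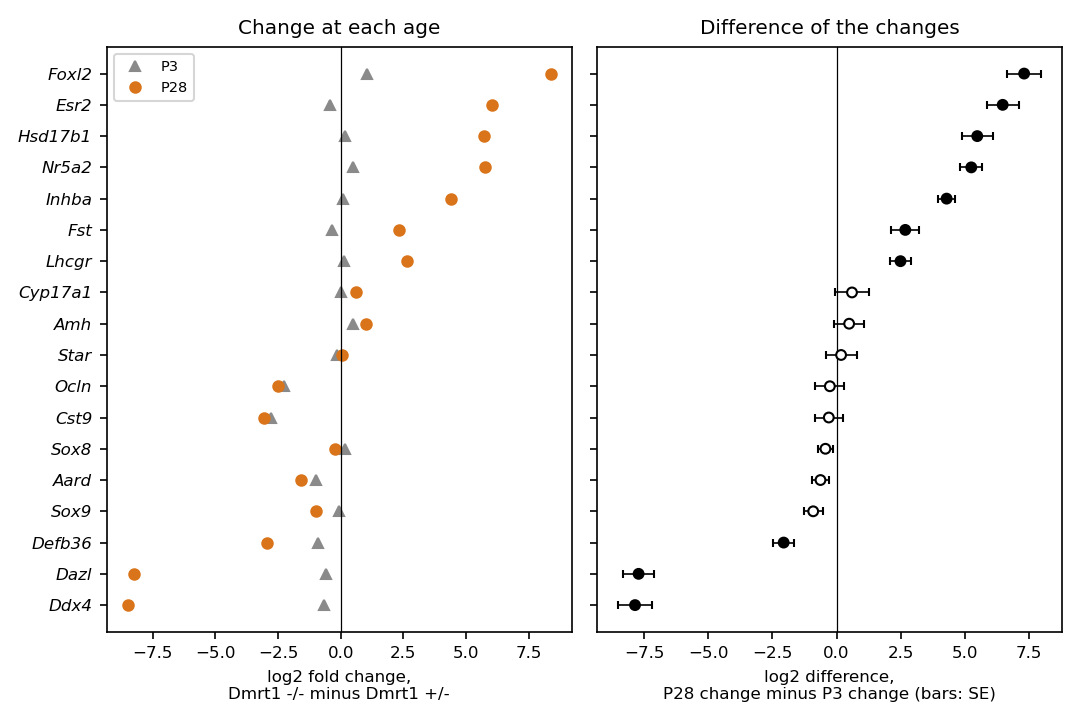
Left, log2 fold change of Dmrt1 -/- against Dmrt1 +/- gonads at P3 (triangles) and P28 (circles) for 18 genes. Right, the difference of the changes, P28 minus P3, with its SE (bars), filled where called. Foxl2, Esr2, Hsd17b1, Nr5a2, Inhba, Fst and Lhcgr have called differences of 7.31 to 2.49, Cst9 and Ocln lie at similar values at both ages, and Defb36, Dazl and Ddx4 have called differences of -2.06 to -7.85.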

How the data were processed

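The authors sequenced stranded mRNA libraries. Reads were trimmed (Trim Galore 0.6.0, cutadapt 1.18) and aligned by STAR 2.7.2a to the mouse genome GRCm38, and the authors counted them by strand over GENCODE M25 genes. The deposited table holds these raw counts for 55401 genes in 30 libraries. Positions and biotypes came from GENCODE M21 (55141 identifiers found) and promoters from RefSeq, GRCm38.p6.

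Tests used edgeR 4.0.16 in R 4.3.3. The 12 P28 gonad libraries were fitted together (filterByExpr, TMM factors, glmQLFit), and Dmrt1 -/- minus Dmrt1 +/- was tested with the quasi-likelihood F test. The SE of a log2 fold change is its size over the square root of F. With 3 libraries against 3 the smallest exact two-sided p is 0.1. Alternatives were DESeq2 1.42.0, limma 3.58.1 with quality weights, other scalings, no filter, only the 6 libraries, a replicate block and each library left out. A self-test on simulated counts of this comparison (20298 genes) found 76 of 100 genes set to a 3-fold change, 95 of 100 set to 6-fold, and 5 that were not set to change. As many genes were set up as down, and all others had the same mean in every group. It therefore does not show how the test or TMM scaling performs where most genes change, as here. Counting intervals and floors cover counting error only.

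The members, the 35 gene lists and the tests were chosen with earlier results of these data known. Named genes are Dmrt1, 18 chosen genes, the first 2 members and the 4 with the smallest adjusted p of each list, the 10 largest changes in each direction (mean of at least 5 CPM, no overlap, predicted genes passed over) and, for Dmrt1 +/- replicate 3, the 5 that differ most each way. Same-numbered libraries gave residual correlations of -0.013, 0.055 and 0.051, which does not pair them. Hi-C interactions were not used here, and some list members are not reported here.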

Additional observations from a re-analysis of the deposited data

Results flagged for a closer look

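For 10 of the 18 chosen genes the change in Dmrt1 -/- against Dmrt1 +/- gonads at P28 differed from that at P3, by the contrast of both changes in edgeR's quasi-likelihood test over the 24 gonad libraries. The same contrast was called for 41.7% of the 21377 genes tested, so a called difference is not particular to these genes. On the log2 scale, P28 minus P3, the differences of the granulosa genes were 7.31 ± 0.65 (SE) for Foxl2, 6.47 ± 0.62 for Esr2, 5.25 ± 0.43 for Nr5a2, 5.48 ± 0.60 for Hsd17b1, 2.68 ± 0.54 for Fst and 4.29 ± 0.33 for Inhba. Their adjusted p ran from 1.56e-09 for Inhba to 2.75e-04 for Fst. Hsd17b1, which makes estradiol, stood at 252, 103 and 186 CPM in P3 Dmrt1 +/- gonads and 202, 228 and 186 CPM in P3 Dmrt1 -/- gonads, and at 0.350, 0.526 and 2.62 CPM and 45.6, 58.4 and 84.0 CPM at P28. Lhcgr of Leydig cells had a difference of 2.49 ± 0.39. The Sertoli gene Defb36, a defensin, had a difference of -2.06 ± 0.42, and the germ cell genes Ddx4 and Dazl had differences of -7.85 ± 0.66 and -7.71 ± 0.60. At P3 the Dmrt1 +/- and Dmrt1 -/- libraries overlapped for Ddx4 and Dazl.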

How the results depend on the processing

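Over the alternatives other than somatic-list scaling, the genes called higher numbered 3757 to 4806 and those called lower 6982 to 10525, all within 1.5 times the main counts of 4149 and 8106. Leaving out 1 library gave 3757 to 4633 higher and 8103 to 8582 lower. The replicate block gave 4101 and 8064, and made Amh a call (1.04, adjusted p = 0.0481), DESeq2 gave 3814 and 8324, and limma with quality weights gave 4353 and 8199. Somatic-list scaling gave 782 higher and 13769 lower, and 83 list entries higher against 198 and 288 lower against 198. It centres the pooled macrophage, endothelial, myoid and stromal genes by construction, and the medians of these lists were then -0.43, 1.68, -1.14 and 0.82. Under it the log2 fold change changed sign for 22 named genes. Of these, 10 passed the call rule under neither scaling (Amh, Cyp17a1, Adgre1, Ciita, Csf1r, Ddx3y, H2-Aa, H2-Eb1, Igf2 and Jag1), and the others were Star (-1.38), Aldh1a2 (-1.48), C1qa (-0.017), Dhh (-1.49), Eif2s3y (-1.35), H2-Ab1 (-1.09), Igf1 (-0.40), Mrap (-0.39), Pdgfra (-1.07), Synpo2 (-0.022), Wnt2b (-0.19) and Wt1 (-1.25). Of 191 named genes tested, 134 kept their call under every alternative and 177 under all but somatic-list scaling, and 14 gained or lost a call when 1 library was left out. The difference between P28 and P3 was called for 8246 to 9513 genes over its alternatives, leaving out 1 library included. For Dmrt1 +/- replicate 3, library size alone moved the medians to -1.07 (elongating spermatids), -0.47 (round spermatids), 0.15 (meiotic prophase, from -0.11) and 0.68 (Sertoli). On the sense strand alone the motif shares of genes called higher and lower were 0.238% and 0.351% for TCAAGGTCA, 1.6% and 2.12% for GTAAACA, and 0.951% and 1.58% for TACANTGT, as fewer strands were searched. The comparison has 3 libraries a group, 1 of them apart from its group, and no absolute scale of RNA per gonad.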

Other observations

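The genes that set Dmrt1 +/- replicate 3 apart were not germ cell genes alone. Cxcl14, a chemokine, stood at 1.66, 2.73 and 19.8 CPM in the Dmrt1 +/- replicates, at a mean of 2.20 CPM in wild-type testes and at 237.9 CPM in Dmrt1 -/- gonads. Hspb8, a small heat shock protein, stood at 2.97, 6.42 and 27.8 CPM in the Dmrt1 +/- replicates and at a mean of 97.5 CPM in Dmrt1 -/- gonads, and Hapln1, a matrix link protein, at 5.33, 4.10 and 19.6 CPM and 17.5 CPM. On the lower side Klk1b8, a kallikrein with close paralogs whose reads it may share, stood at 56.8, 88.4 and 7.35 CPM, and Sv2c at 23.95, 31.1 and 3.04 CPM.

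Counts of many late germ cell genes remained above 0 in Dmrt1 -/- gonads, though 2 of the round spermatid genes had 0 counts there. Over the 20 elongating spermatid genes the Dmrt1 -/- mean was 0.128 to 4.85% of the Dmrt1 +/- mean, with a median of 0.224%, and 18 of them were under 1%. Odf2, a centrosomal gene that somatic cells also express, had the highest share. Over the 20 round spermatid genes the median was 0.382%, and over the 25 meiotic genes 0.629%. The list of undifferentiated spermatogonial genes had a median of 39.5%. Odf2 was named after its values were seen.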
